A study of Mus musculus with 2 samples.

Results

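Transcripts of 10 genes tied to the microRNA miR-378 were read on liver arrays of mice that had received a control adenovirus or an adenovirus labelled as overexpressing miR-378. They were 9 transcripts reported in the literature as miR-378 targets (Med13, Crat, Pik3ca, Grb2, Esrrg, Gabpa, Sufu, Igf1r and Tusc2) and Ppargc1b, the gene that hosts miR-378a. The genes were chosen by name, through the RefSeq transcript identifier that each array probe carries, and they are 10 of the 20652 genes with a named probe. Both groups were male mice that were 8 weeks old when 1e9 plaque forming units of virus entered the tail vein. Livers of 5 mice were pooled in each group, and each pool was read on 1 single-colour Agilent array after 0.5 ug of RNA had been labelled with Cy3. The control group is called Ad-Ctrl and the miR-378 group Ad-378. Collection was at 2 weeks by the protocols of both groups, whereas the description of the Ad-378 pool gives 3 weeks, and this remained unsettled. Although the tissue is labelled liver, the RNA protocol is for blood and includes globin removal. The mouse strain, the viral promoter and the form of miR-378 are not given in the sources used here. With 1 array per group there is no spread between animals and no test, and every error below is the scanner's own error for the spots compared.

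A microRNA guides an Argonaute protein to messenger RNAs, mostly by pairing of its seed, the bases from position 2 to 8, with sites in the target. The bound transcript is then translated less and often degraded, so a target can lose protein with little loss of message, and a message array reads only the second of these. The gene Ppargc1b makes the coactivator PGC-1β, which drives mitochondrial and lipid genes together with the oestrogen-related receptors, and miR-378a lies in its annotated span. In metabolic tissue miR-378 is known for its reported effects on fatty acid oxidation, insulin signalling and mitochondrial function.

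The members of the family with an entry in the RefSeq sequence table (GRCm38.p6) are shown because the seed decides which transcripts a form can pair with, and capitals mark the seed.
mmu-miR-378b: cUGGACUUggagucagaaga
mmu-miR-378c: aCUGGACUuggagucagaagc
mmu-miR-378d: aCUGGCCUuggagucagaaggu
On that build mmu-miR-378b lies at chr11:88352839-88352858 on the plus strand, within the annotated span of Msi2. The sequence of mmu-miR-378c is at chr14:46954905-46954925 on the minus strand, within the span of Samd4. The form mmu-miR-378d is at chr10:126710355-126710376 on the minus strand and lies in no protein-coding gene of the table. With positions counted from 1 at the 5′ end of mmu-miR-378c, mmu-miR-378b starts 1 base later and matches it at 19 of 20 aligned bases, with the substitution C21A. The form mmu-miR-378d matches at 19 of 21 bases, with A6C inside the seed and C21G near the 3′ end. The seeds of these 3 forms therefore differ. The form miR-378a is named only and was not part of that comparison, and sites for any seed in the 10 transcripts were not analysed here. No probe of the array was matched to a miR-378 gene (0 probes), so the level of the miRNA itself was not measured here.

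The 10 genes did not share a direction. All 10 had a probe well above background on both arrays, and their log2 differences (Ad-378 minus Ad-Ctrl) ran from -1.79 for Med13 to 1.21 for Crat, with a median of -0.04. The median over all 14288 genes measured on both arrays was 0.04, and from the 10th to the 90th percentile those genes spanned -0.66 to 0.55. The difference was below 0 in 7 of the 10 genes, against 46.1% of all genes, but 3 of the 7 (Gabpa, Tusc2 and Ppargc1b) were within 0.1 of 0. Counting the 9 reported targets without the host gene, 6 were below 0 and the median was -0.08. A signal at least 2-fold lower in Ad-378 was found for 1 of the 10 genes, Med13, where 4.51% of all genes were that much lower. One of the 10, Crat, was at least 2-fold higher, where 2.83% of all genes were. At 1.5-fold, 2 of the 10 were lower (Med13 and Grb2) against 12.0% of all genes, and 1 was higher (Crat) against 8.79%. Counted by probe, 1 of the 13 member probes above background was at least 2-fold lower and 1 was at least 2-fold higher, where the shares over the 23860 such probes were 3.61% and 3.22%. Beyond the 95% range of the scanner error around 0 lay 3 of the 10 genes on the lower side (Med13, Grb2 and Igf1r), where 17.6% of all genes did, and 1 on the higher side (Crat), where 16.3% of all genes did. A reading outside that range was thus common among all genes.

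**Figure D1:**
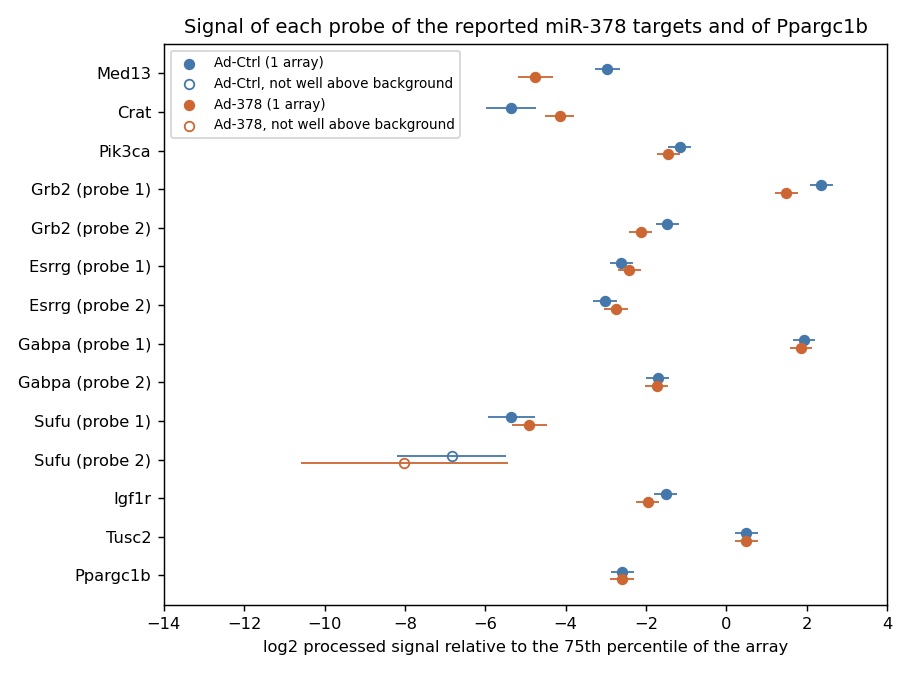
Scaled log2 signal of every probe of the 10 genes on the Ad-Ctrl and the Ad-378 array, with a line for the 95% range of the scanner error of each spot, and open points for spots not well above background, and with the 75th percentile of each array set to 0. Med13 and both Grb2 probes sit lower on the Ad-378 array, Crat sits higher, and the pairs of Esrrg, Gabpa, Tusc2 and Ppargc1b nearly overlie each other.

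The arrays themselves were alike in reach. Of 43020 gene spots, 63.1% (Ad-Ctrl) and 65.7% (Ad-378) were well above background, none was saturated (0 spots on each), and the median scanner error of a difference was 0.20 log2 units. The 14 hepatocyte markers checked were present on both arrays with a median difference of 0.15. That median was -0.05 after quantile and -0.07 after loess scaling, so its sign depended on the scaling. Of 6 muscle markers only Myh6 was well above background on both. Lower in Ad-378 were all 15 proliferation genes measured (median -2.15, 14 of them at least 2-fold), the 12 markers of Kupffer cells and macrophages (median -0.82), and 10 of 11 stellate cell markers (median -0.80). The part of these cells in the differences below was not tested.

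Med13 showed the lowest difference of the 10. It encodes a subunit of the kinase module of Mediator, the complex that links transcription factors to RNA polymerase II. Med13 is a reported target of miR-378 and of other miRNAs. Its single probe (A_52_P515826, NM_001080931) gave 102.65 ± 10.99 in Ad-Ctrl against 25.73 ± 4.0 in Ad-378 (processed signal, in intensity units). After scaling each array to its 75th percentile, Med13 was 3.47-fold lower in Ad-378, a log2 difference of -1.79 ± 0.27 with a 95% scanner range of -2.33 to -1.26, and 0.8% of all probes above background had a lower value. The 2 signals do not overlap within that range. In whole liver RNA, fewer cells of a type and less RNA per cell cannot be told apart.

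The Med13 spot was dim. Its raw median signal was 138.5 in Ad-Ctrl and 64.0 in Ad-378, where the 153 negative control spots reached from 33.5 to 84 and from 33 to 64. The Ad-378 reading thus equalled the brightest negative control of its array although the spot was marked well above background. Without background subtraction, on the deposited series matrix values, the difference was -0.91, and with the normexp background model it was -0.74, so the direction held and the 2-fold mark was not reached. When the probes well above background on both arrays were split by signal into 10 bins of equal size, Med13 fell in the second dimmest bin, where 4.53% of probes were at least 2-fold lower and 6.66% at least 2-fold higher.

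The partners of Med13 in the kinase module did not share a direction. Its paralog Med13l differed by 0.31 ± 0.36, the kinase Cdk8 by 0.04 ± 0.20, its paralog Cdk19 by -0.44 ± 0.21 (scanner range -0.84 to -0.03, lower in Ad-378) and their cyclin Ccnc by 0.37 ± 0.21. Med12, which activates the kinase, gave -0.25 at its brightest probe and 0.91 at its other probe. Over the 31 Mediator genes measured, of 33 listed, 13 were below 0 and the median was 0.08. Apart from Med13, 1 was at least 2-fold lower and 1 at least 2-fold higher. The first was the core subunit Med14 at -1.14, whose 3 probes ran from -1.14 to 0.10. The other was Med1, the subunit that nuclear receptors contact, at 1.68, with 4 probes from 0.07 to 1.68. Probes of both subunits therefore disagreed on the size of any difference, and those of Med14 also on its direction.

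Crat stood at the other end of the 10. It encodes carnitine acetyltransferase, which moves acetyl groups between coenzyme A and carnitine and so buffers mitochondrial acetyl-CoA. Its single probe (A_55_P1983314, NM_007760) read 19.48 ± 4.29 in Ad-Ctrl and 39.09 ± 4.91 in Ad-378. The scaled signal was 2.31-fold higher in Ad-378, a log2 difference of 1.21 ± 0.37 with a scanner range of 0.49 to 1.93. Raw medians were 59.0 and 75.5, and 59.0 lies inside the range of the negative controls of the Ad-Ctrl array. Without background subtraction the difference was 0.56 and with normexp 0.49, both higher in Ad-378 and both under 2-fold. In its bin of signal, the dimmest, 2.43% of probes were at least 2-fold higher.

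Other genes of carnitine handling lay mostly above 0. Of 11 measured, 2 were below 0, where 46.1% of all genes were. The median was 0.45 with Crat and 0.41 without it, against 0.04 over all genes. The median with Crat was 0.27 after loess scaling. The acyltransferases Cpt1a, the outer membrane gate of fatty acid oxidation, and Cpt2, its inner membrane partner, differed by 0.55 ± 0.06 and 0.48 ± 0.20. The carrier Slc25a20, which exchanges acylcarnitines for carnitine, gave 0.83 ± 0.20, and peroxisomal Crot gave 0.14 ± 0.20. After loess scaling Cpt1a was at 0.36, Cpt2 at 0.33, Slc25a20 at 0.73 and Crot at -0.04. Of the transporters, 2 passed 2-fold in opposite directions. Slc22a5, which takes carnitine into cells, read 1328.2 in Ad-Ctrl and 3024.3 in Ad-378, a difference of 1.39 ± 0.20. Slc16a9, a carnitine efflux transporter, read 321.4 and 124.2, a difference of -1.17 ± 0.21, with a second probe at -0.53.

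**Figure D2:**
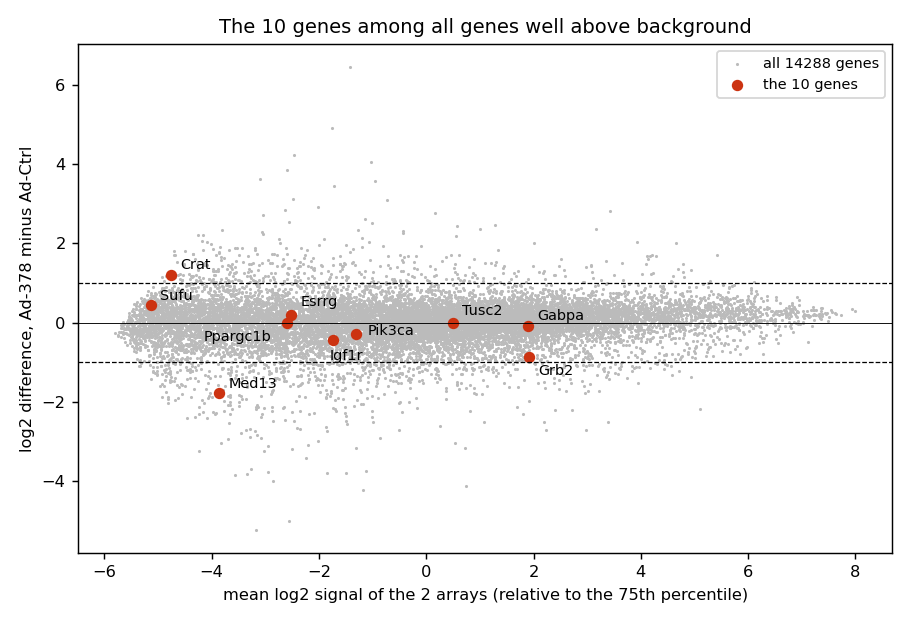
Log2 difference (Ad-378 minus Ad-Ctrl) against the mean scaled log2 signal for the 14288 genes well above background on both arrays, with the 10 genes marked and dashed lines at 2-fold. Med13 and Crat lie beyond the dashed lines among the dim genes, and Grb2 lies just inside the lower line among bright genes.

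Grb2 was lower in Ad-378 at both of its probes. It encodes the adaptor that carries signals from receptor tyrosine kinases to the Ras exchange factor Sos. Probe 1 (A_51_P198411, NM_008163) read 4105.62 in Ad-Ctrl and 1953.71 in Ad-378, and probe 2 (A_55_P2123727) read 288.06 and 157.89. The scaled difference of the first was -0.87 ± 0.20 (scanner range -1.27 to -0.47), or 1.82-fold, and that of the second was -0.66 ± 0.21 (-1.07 to -0.26). Of all probes, 5.0% were lower than probe 1 and 8.4% lower than probe 2. Neither signal is near background, with raw medians of 3700 and 1670 for probe 1. Under the 6 settings of scaling and background, probe 1 stayed between -0.95 and -0.87 and probe 2 between -0.71 and -0.54. In the signal bin of probe 1, 1.89% of probes were at least 2-fold lower and 1.68% at least 2-fold higher.

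Grb2 is made in many cell types, and the markers of other cell types differed between the pools in both directions. The summed scaled signal of the 12 Kupffer cell and macrophage markers was 151.95 in Ad-Ctrl and 82.74 in Ad-378, and Cd163 was not well above background on either array. The 11 stellate cell markers summed to 85.28 and 50.07, and Des was not well above background on either array. The 10 sinusoidal endothelial markers summed to 62.08 and 51.78. The 8 T and NK cell markers summed to nearly equal totals of 12.4 and 12.28, but gene by gene they did not read alike. Of these 8, 5 were below 0 and 3 above, with a median of -0.46. At least 2-fold lower were 3 (Gzma at -1.33, Gzmb at -1.25 and Cd8a at -1.14), and 0 were at least 2-fold higher. Markers of B and plasma cells (6 measured, Cd79a not well above background) summed to 0.62 and 1.14, and those of cholangiocytes (5 measured, Krt7 not well above background) to 3.56 and 8.27, both higher in Ad-378. Most of the cholangiocyte sum was Spp1, which read 2344.2 in Ad-Ctrl and 4997.5 in Ad-378. The brightest of the B and plasma cell markers was Jchain, which read 169.1 in Ad-Ctrl and 408.1 in Ad-378. In each list 1 gene was below 0, Pax5 at -0.28 (scanner range -1.01 to 0.45) and Krt19 at -0.36 (-0.85 to 0.12). The part of these in the Grb2 and Igf1r differences was not tested.

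Around Grb2, genes of the Ras and MAPK pathway were more often below 0 than above. Of 26 measured, of 30 listed, 19 were below 0 with a median of -0.19, and 18 of 25 without Grb2 with a median of -0.18, where 46.1% of all genes were below 0. The direct partners did not share a direction. The exchange factors Sos1 and Sos2 gave 0.51 ± 0.22 and -0.34, the adaptor Shc1 gave 0.42 ± 0.20, the docking protein Gab1 gave -0.16 and the phosphatase Ptpn11 gave -0.01. One gene of the list was at least 2-fold lower, the ERK phosphatase Dusp6, which read 2158.6 in Ad-Ctrl and 846.1 in Ad-378, a difference of -1.15 ± 0.20. None (0 genes) was at least 2-fold higher.

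Pik3ca and Igf1r, which also act in insulin and growth factor signalling, both read slightly lower, Pik3ca within the scanner error. Pik3ca, the catalytic p110α subunit of the PI3-kinase that insulin activates, read 357.62 in Ad-Ctrl and 255.68 in Ad-378 (A_52_P265002, NM_008839). Its difference of -0.28 ± 0.21 had a scanner range of -0.68 to 0.12, so the 2 readings overlapped within the error of the scan. Igf1r, the receptor for IGF-1, read 280.89 and 179.62 (A_66_P105801, NM_010513). Its difference was -0.44 ± 0.21 with a range of -0.85 to -0.04, just clear of 0, and it was -0.24 with normexp. Of all probes, 22.0% lay below Pik3ca and 14.6% below Igf1r, so many transcripts were lower by as much.

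Genes near Pik3ca were spread around 0. Of 25 measured in the PI3-kinase and insulin list, 12 were below 0, none (0 genes) passed 2-fold in either direction, and the median was 0.07. The sister catalytic subunit Pik3cb gave -0.17 ± 0.20, and the regulatory subunits Pik3r1 and Pik3r2 gave 0.34 and 0.24. The insulin receptor gene Insr gave 0.13 with probes from 0.07 to 0.96. The substrates Irs1 and Irs2 gave -0.04 and 0.29, with another Irs1 probe at 0.67. Akt1, the kinase downstream, was lowest of the list at -0.68 ± 0.20.

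In the IGF list 13 of 17 genes were measured, 4 were below 0 and the median was 0.14. The ligand Igf1, made mainly by hepatocytes, gave 0.20 at the main scaling and -0.00 after loess, and Igf2r, the clearance receptor, gave -0.19 ± 0.07. The binding protein Igfbp1 gave 0.18 at the main scaling and -0.05 after loess, and Igfbp2 gave 0.63. Igf2 was well above background on neither array. One gene passed 2-fold, Igfals, the liver subunit of the circulating IGF complex, which read 338.7 in Ad-Ctrl and 886.4 in Ad-378, a difference of 1.59 ± 0.20.

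The transcription factors among the 10 gave nearly equal readings on both arrays. Esrrg, an oestrogen-related receptor that switches on oxidative metabolism, read 130.92 in Ad-Ctrl and 130.40 in Ad-378 at probe 1 (A_65_P19089, NM_001243792) and 98.17 and 103.7 at probe 2 (A_55_P2006499). The scaled differences were 0.20 ± 0.21 and 0.28 ± 0.21. Gabpa, the DNA-binding subunit of the factor GABP that controls nuclear genes of mitochondria, read 3051.24 and 2513.66 at probe 1 (A_52_P152283, NM_008065) and 245.73 and 208.51 at probe 2 (A_51_P364984). Its differences were -0.08 ± 0.20 and -0.03 ± 0.21. All 4 lie inside the scanner range, and the probes of each gene gave the same sign at the main scaling.

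The host gene Ppargc1b also read nearly alike. Its probe (A_55_P1993168, NM_133249) gave 132.82 in Ad-Ctrl and 114.97 in Ad-378, and after scaling the difference was -0.00 ± 0.21 with a range of -0.42 to 0.41. Of 17 genes measured in the list of receptors, coactivators and GABP partners, 5 were below 0, none (0 genes) passed 2-fold by its brightest probe, and the median was 0.20, or 0.26 over the 14 that are not among the 10 genes. The receptors Esrra and Esrrb gave 0.47 and 0.39, and the coactivators Ppargc1a and Pprc1 gave 0.22 and -0.29. A second Ppargc1a probe read -0.19. Gabpb1, the partner of Gabpa, gave 0.50 ± 0.20, and its paralog Gabpb2 was not well above background on either array. Highest in this list was Ppara, the fatty acid sensing receptor of hepatocytes, at 0.86 ± 0.20 by its brightest probe, and its 3 probes ran from 0.67 to 1.52, the last of which is past 2-fold.

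**Figure D3:**
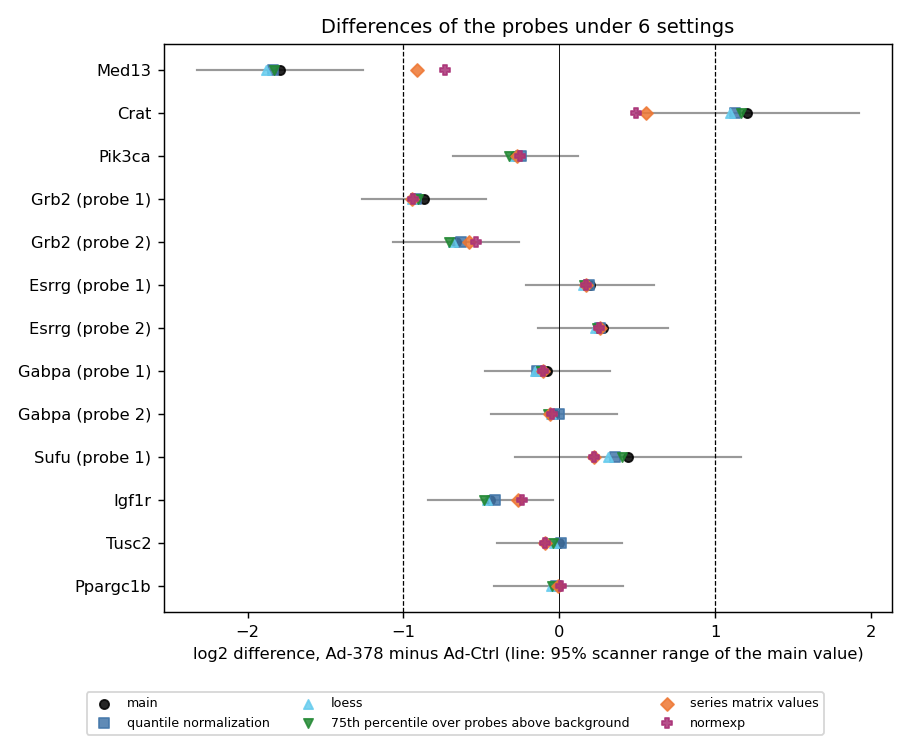
Log2 difference (Ad-378 minus Ad-Ctrl) of the 13 member probes well above background under 6 settings of scaling and background, with a line for the 95% scanner range of the main value and dashed lines at 2-fold. Med13 moves from -1.79 to -0.74 and Crat from 1.21 to 0.49 with the treatment of background, while both Grb2 probes keep close to their main values.

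Sufu, which holds Gli factors back in the Hedgehog pathway, was measured at the edge of detection. Probe 1 (A_52_P603184, NM_015752) read 19.62 in Ad-Ctrl and 23.15 in Ad-378, a difference of 0.44 ± 0.37 with a range of -0.28 to 1.17. Probe 2 (A_51_P396550) was not well above background on either array. The pathway around it was only partly measurable, since Gli1, Gli2, Ptch1 and Shh were well above background on neither array. Of the 14 genes measured, 6 were below 0 and the median was 0.11. Gli3, another reported target and a Hedgehog effector, gave -0.46 ± 0.28 and -0.05 with normexp, and the signal transducer Smo gave 0.62 with a second probe at 1.26. One gene passed 2-fold by its brightest probe, the Hedgehog-binding antagonist Hhip, which read 45.5 and 145.2, a difference of 1.88 ± 0.23 that was 1.05 with normexp.

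Tusc2, a small mitochondrial protein described as a tumour suppressor, read 1127.03 in Ad-Ctrl and 978.74 in Ad-378 (A_52_P123354, NM_019742). After scaling the difference was -0.00 ± 0.20. Among the genes listed as its chromosomal neighbours, 8 of 12 measured were below 0 with a median of -0.20, and none (0 genes) passed 2-fold. Without Tusc2 the median was -0.35, but 0.01 on series matrix values and 0.00 with normexp, so the shift of the neighbours depended on the treatment of background.

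A further 10 transcripts reported as miR-378 targets were set beside the members. Of these, 7 were below 0 by their brightest probe, where 46.1% of all genes were. Their median was -0.21 (-0.29 after loess and -0.13 with normexp), against 0.04 over all genes. None (0 genes) passed 2-fold, where 7.35% of all genes did in either direction. Of the 10, 3 were at least 1.5-fold lower, where 12.0% of all genes were: Vim, the mesenchymal filament, at -0.76 ± 0.20, the co-repressor Tob2 at -0.62 ± 0.20, and the initiator caspase Casp9 at -0.61 ± 0.20. Vim read 8443.1 in Ad-Ctrl and 4331.0 in Ad-378. It is also made by stellate cells and macrophages, whose markers were lower as given above. Whether these cells have a part in the Vim difference was not tested. The others were Gli3, Akirin1 at -0.21, Bmp2 at -0.20, Mafg at -0.10, Npnt at 0.14, Ksr1 at 0.23 and Pdk1 at 0.33. By probe, Akirin1 ran from -0.57 to -0.21 (3 probes), Mafg from -0.10 to 0.10 (3 probes) and Ksr1 from -0.05 to 0.23 (2 probes). The sign of Mafg and of Ksr1 thus depended on the probe. Genes of the machinery that makes and uses miRNAs were balanced, with 8 of 16 below 0, a lowest value of -0.31 for Drosha and a highest of 0.56 for Tnrc6b, and Dicer1 was at 0.35.

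Across the 10 lists, counted without the members, 162 of 182 genes were measured. Of these, 7 passed 2-fold by their brightest probe, 3 lower (Slc16a9, Dusp6 and Med14) and 4 higher (Hhip, Med1, Igfals and Slc22a5). That is 4.32% of them, where 7.35% of all genes passed 2-fold in either direction, and their median of 0.04 equalled that of all genes.

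**Figure D4:**
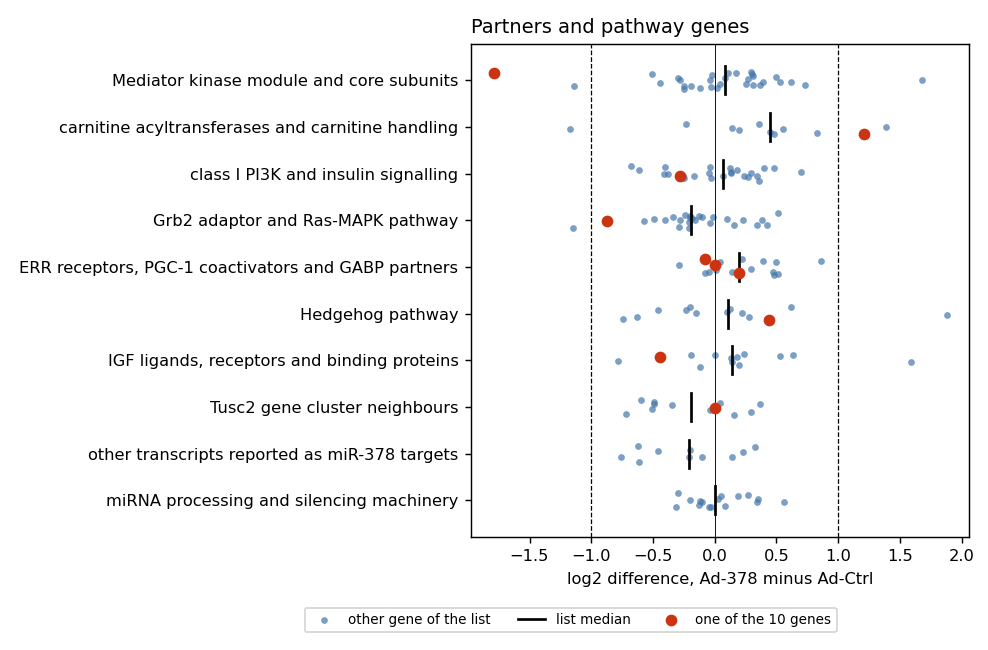
Log2 difference (Ad-378 minus Ad-Ctrl) of the measured genes of the 10 lists, with the members as large points, list medians as bars and dashed lines at 2-fold. Medians lie between -0.21 for the other reported targets and 0.45 for carnitine handling, and Med13, Crat and Grb2 sit away from the median of their own lists.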

How the data were processed

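The authors deposited scanner intensities from Agilent 1-colour arrays. Per the file headers, the processed signal was background-subtracted on the array and not scaled between arrays. Feature Extraction was version 9.1 per the submitters' processing notes and 11.0.1.1 per the file headers. The deposited flags are other values of 0 or 1, and the deposited series matrix held intensities equal to the raw median signal in 100% of values (column medians 103 and 95, no log).

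Control spots and 123 outlier gene spots per array were left out. Values were log2 of the processed signal minus the array's 75th percentile (800.4 in Ad-Ctrl, 695.2 in Ad-378). The brightest probe that was well above background in both pools stood for its gene. Of 39401 probes, 27219 were named through unversioned RefSeq identifiers (GRCm38.p6), and no gene coordinates are given because the headers name mm9. Errors are the deposited spot errors, and the number of arrays limits the precision. For a probe with several spots, the mean error variance was divided by the number of spots. That treats spots of the same array as independent, so errors such as those of Cpt1a (0.06) and Igf2r (0.07) may be too small. Each probe of the 10 genes had 1 spot. All probes of the 10 genes, their direct partners, the other reported targets and any list gene past 2-fold were named. The members and lists were chosen with earlier results of these data known. Alternatives were quantile, loess (span 0.3) and other percentile scaling, series matrix values, normexp (offset 50), averaged probes, no background filter, and 1.5- and 3-fold marks. R 4.3.3, limma 3.58.1, Python 3.11.15, numpy 2.4.6 and pandas 2.3.3 were used, and the calculation was tested on simulated data.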

Additional observations from a re-analysis of the deposited data

How the results depend on the processing

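With the series matrix values, 0 of the 10 genes were at least 2-fold lower and 0 at least 2-fold higher, and the same counts of 0 and 0 came with normexp. The share of all genes past 2-fold was not counted under either setting, so these counts have no background beside them. With the main values, 2 were lower and 1 higher at 1.5-fold, and 1 was lower (Med13) and 0 were higher at 3-fold. The 7 list genes past 2-fold became 12 with no background filter and 24 at 1.5-fold. Of all genes, 12.0% were at least 1.5-fold lower and 8.79% at least 1.5-fold higher. No share of all genes was counted without the filter or at 3-fold. Of 65 values of the member probes under 5 alternatives, 62 stayed inside the main scanner range and 3 did not, which were Med13 on series matrix values (-0.91) and with normexp (-0.74) and Crat with normexp (0.49). The sign turned in 3 values, all within 0.02 of 0, which were Gabpa probe 2 and Tusc2 after quantile scaling and Ppargc1b with normexp. The number of members below 0 was 6 or 7 and their median ran from -0.10 to -0.03 under every alternative. Normexp used the raw median signal. No paired analysis was possible because only 1 array was read per group. Signal over background limits Med13, Crat and Sufu.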
